A study of Mus musculus with 6 samples.

Results

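The killer lectin-like receptor (Klr) family was described as the 26 genes, of 22547 in each deposited table, whose names begin with Klr followed by a letter from a to k. They comprise 11 Klra, 5 Klrb and 3 Klrc genes, with Klrd1, Klre1, Klrg1, Klrg2, Klri1, Klri2 and Klrk1. In the GENCODE annotation of mm10 all 26 lie on chromosome 6, and 24 of them lie within the 2638 kb from chr6:128609227-131247362, with Klrg1 and Klrg2 outside that span. The members held 17691 UMIs in the stage table and 35412 UMIs in the antibody table.

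Klr proteins are C-type lectin-like receptors on natural killer (NK) cells and on subsets of T cells. Some carry an inhibitory tail that recruits phosphatases and others signal through adaptors such as Tyrobp (DAP12) or Hcst (DAP10), so that the set of receptors on a cell tunes its response to MHC class I and stress ligands on a target. Single NK cells are known to carry different combinations of the Klra (Ly49) receptors.

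The 6 libraries came from tumours transplanted into FVB (FVB.rGH-Luc-GFP) mice, with 1 library per group, and the labelled tissue is the mammary gland. The Primary library was labelled MMTV-Wnt1/iFGRR2 and came from mice of 8 to 10 weeks. The Dormant library (MMTV-Wnt1/iFGRR1, 10 to 12 weeks) was residual tissue after 14 days of the FGF receptor inhibitor NVP-BGJ398, given by gavage, and a further 14 days off drug. All groups but Primary received the inhibitor. The labels number iFGRR from 1 to 6 over the samples, and whether these are different constructs is not given in the sources used here. The Long-term dormant library (MMTV-Wnt1/iFGRR4, 32 to 34 weeks) was late residual tissue and the Recurrent library (MMTV-Wnt1/iFGRR3, 20 to 22 weeks) was regrown tumour. The Jag1 library (MMTV-Wnt1/iFGRR6) and the IgG library (MMTV-Wnt1/iFGRR5) came from mice of 16 weeks whose residual disease was treated with either an anti-Jagged-1 antibody (Jagged-1 being a Notch ligand) or a control IgG, at 15 mg/kg weekly for 5 weeks, and was collected 1 week later. All mice received the B/B homodimerizer after transplantation, which activates the inducible FGF receptor of the tumour line. Wnt1 is driven by the MMTV promoter in tumour epithelium. All cells were frozen and thawed, and live cells were sorted by DAPI before loading.

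Deposited depth ranged from 9735651 to 41259292 UMIs per library, and the median per cell from 2568 to 7065. Kit version 2 was used for the stage set and version 3 for the antibody set, so values of the sets are not compared. Cell barcodes repeated between the Jag1 and IgG libraries 131 times, against 26 to 50 times between pairs of stage libraries. Of the 128 repeated barcodes in use, 123 fell in the same class in both libraries and 126 were at least 3 times deeper in one of them, and they included 0 NK-like and 0 CD8-like cells in Jag1, and 1 of each in IgG. Without them, 108 of 108 member levels in the killer cell classes stayed within their counting interval. That count takes in the stage libraries, which this step does not concern. So few NK-like and CD8-like cells were left out of the antibody libraries that little could move. Values below for other cells are given with and without them. With 1 library per group there was no test between groups, and every 95% interval covers counting error only.

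NK-like cells numbered 68 in Primary, 475 cells in Dormant, 137 cells in Long-term dormant, 83 in Recurrent, 360 in Jag1 and 289 in IgG. Their defining markers were present in every library, with Tyrobp UMIs in 65.1 to 96.4% of cells and Ncr1, an activating NK receptor, in 31.6 to 85%. Eomes, a transcription factor of NK cells, was found in 10.3% of Primary and 4.82% of Recurrent NK-like cells, against 19.7 to 41.2% in the other 4 libraries. Of the IgG cells, 112 came from a cluster in which 86.6% of its IgG cells carried Cd3e, a T cell receptor subunit. The same cluster gave 35 Jag1 cells, of which 85.7% carried it. In the stage libraries Cd3e was found in 17.6% of Primary, 21.9% of Dormant, 2.19% of Long-term dormant and 18.1% of Recurrent NK-like cells. Cd3g was found in 30.9, 33.9, 6.57 and 39.8% in the same order, so Long-term dormant NK-like cells held the fewest Cd3-positive ones. CD8-like cells numbered 32 in Primary, 138 cells in Dormant, 38 cells in Long-term dormant, 24 in Recurrent, 1062 in Jag1 and 747 in IgG. Innate-like cells, named from granzyme C and F, Xcl1, Cd160 and related genes, numbered 138 in Primary, 87 cells in Dormant, 49 cells in Long-term dormant, 119 in Recurrent, 71 in Jag1 and 81 in IgG. A Cd3e UMI was found in 50.7 to 85.7% of them, so most were T cells by this marker. Of the innate-like cells, 47 of 71 in Jag1 and 16 of 81 in IgG came from a cluster with a median of 902 UMIs. Gzmc was found in 53.6% of the Primary and 47.9% of the Recurrent innate-like cells but in 0 to 5.75% in the other libraries. There the name rests on the shared profile of the clusters. Xcl1 was found in 67.8% of Dormant, 49% of Long-term dormant, 33.8% of Jag1 and 75.3% of IgG innate-like cells. In NK-like cells its share was 57.9, 24.8, 81.4 and 77.2% in the same order. Of the 49 Long-term dormant innate-like cells, 22 carried Cd8a or Cd8b1 with Cd3 and no Trdc, Gzmc or Gzmf. Gamma-delta-like cells, led by Cd163l1 and Il17a, numbered at most 27 in any library.

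The summed Klr level of NK-like clusters differed little between the stage libraries, while that of NK cells taken by markers differed more. In the clusters the summed level of the 26 members was 2542 UMIs per 1000000 of the class (CPM) in Primary, 2398 CPM in Dormant, 2621 CPM in Long-term dormant and 2426 in Recurrent NK-like cells. The log2 ratio was -0.08 for Dormant over Primary (95% interval -0.22 to 0.06), 0.13 for Long-term dormant over Dormant (-0.01 to 0.27) and 0.02 for Recurrent over Dormant (-0.11 to 0.14). In NK cells taken by an Ncr1 UMI and no Cd3 UMI (24, 103, 64 and 20 cells in stage order) the sum was 3137 CPM in Primary, 2091 CPM in Dormant, 1642 CPM in Long-term dormant and 2409 in Recurrent, with intervals of 2736 to 3581 CPM in Primary and 1461 to 1838 CPM in Long-term dormant. In the antibody libraries the sum was 3173 CPM in Jag1 and 3688 CPM in IgG NK-like cells, a log2 ratio of -0.22 (-0.27 to -0.16). By the Ncr1 and Cd3 markers (180 Jag1 and 88 IgG cells) it was 3075 CPM in Jag1 and 3270 CPM in IgG. That log2 ratio was -0.09 (-0.18 to 0.00). A Klr UMI was found in 90.5 to 100% of NK-like cells in the 6 libraries. In cells that should lack these receptors the share was 3.32% of Primary, 21.7% of Dormant, 9.57% of Long-term dormant and 5.25% of Recurrent epithelial cells. Summed levels there were 6.9, 72.7, 57.4 and 7.48 CPM in that order, although epithelial cells were deeper (median 3651 to 9236 UMIs, against 1293 to 2970 in NK-like cells).

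**Figure D1:**
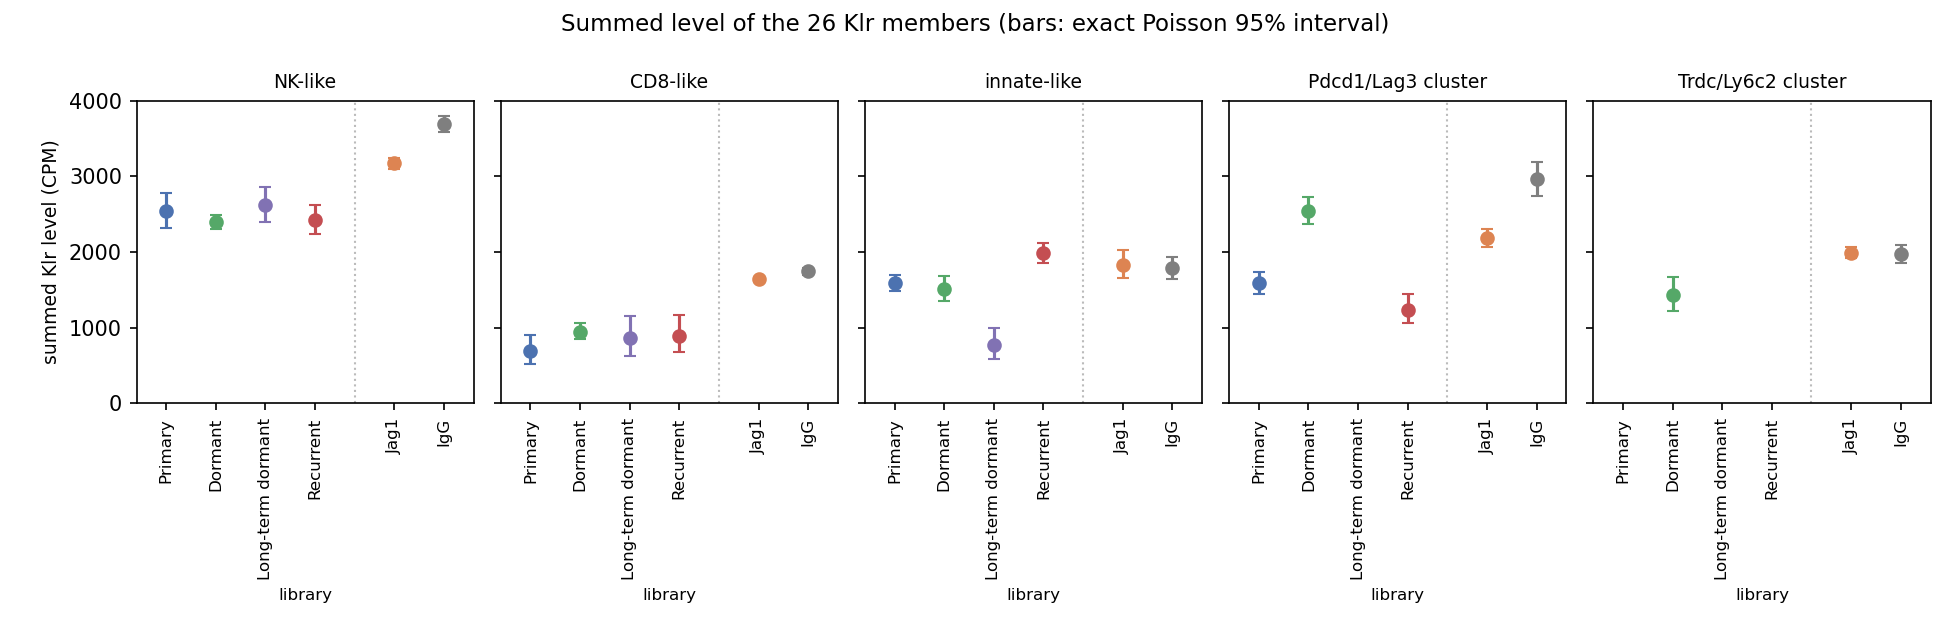
Summed level of the 26 Klr members in CPM (vertical axis) in 5 lymphocyte classes (panels) by library (horizontal axis), with exact Poisson 95% intervals; libraries with fewer than 20 cells of a class are not drawn, and the dotted line divides the stage from the antibody libraries. The 4 stage libraries lie between 2398 and 2621 CPM in NK-like cells, whereas in the Pdcd1/Lag3 cluster the stage libraries drawn range from 1236 CPM in Recurrent to 2547 CPM in Dormant.

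CD8-like cells carried 688 CPM in Primary, 946 CPM in Dormant, 859 CPM in Long-term dormant and 895 in Recurrent, on 24 to 138 cells, and 1637 CPM in Jag1 against 1745 CPM in IgG. Cd8a was found in 56.2, 35.5, 26.3 and 66.7% of the stage cells in that order. CD8 T cells taken by markers (Cd8a or Cd8b1 with Cd3 and no Trdc, Gzmc or Gzmf) carried 638, 781, 537 and 734 CPM in stage order. Their sum was 1486 CPM in Jag1 and 1710 CPM in IgG. Innate-like cells carried 1593 CPM in Primary, 1507 CPM in Dormant, 772 CPM in Long-term dormant and 1985 in Recurrent, with 1829 CPM in Jag1 and 1784 CPM in IgG. Gamma-delta-like cells carried 433 to 492 CPM in the stage libraries that held any, 476 CPM in Jag1 and 190 CPM in IgG, on 7 to 67 Klr UMIs each. Gamma-delta T cells taken by Trdc and Cd3 UMIs, which came from several clusters, carried 1086 CPM in Primary, 1099 CPM in Dormant, 1327 CPM in Long-term dormant and 1368 in Recurrent, with 2106 CPM in Jag1 and 2102 CPM in IgG. CD4-like cells, for which a Klr signal is not typical, held 35.3 to 302 CPM. Among NK-like, CD8-like, innate-like, gamma-delta-like and CD4-like cells by cluster, the sum was highest in NK-like cells in each of the 6 libraries. The Pdcd1/Lag3 cluster is outside that ranking. In Dormant it carried 2547 CPM, above the 2398 CPM of NK-like cells. In Primary, Recurrent, Jag1 and IgG it lay below NK-like cells, and in Long-term dormant it held 5 cells.

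Of the 26 members, 18 reached 20 UMIs in at least 1 library of the NK-like, CD8-like, gamma-delta-like or innate-like cells and are given below. The other 8 were Klrg1, Klrg2, Klrb1, Klrc3, Klri1, Klra2, Klra10 and Klra17. Klra2, Klra17 and Klrb1 were found chiefly in other classes and are taken up with them. In each library pair and class, a gene was read where it had at least 20 UMIs over both libraries, and called where the CPM differed at least 2-fold and the interval of the ratio excluded 1. The same rule was run on all genes, and the share it called is given as the background.

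**Figure D2:**
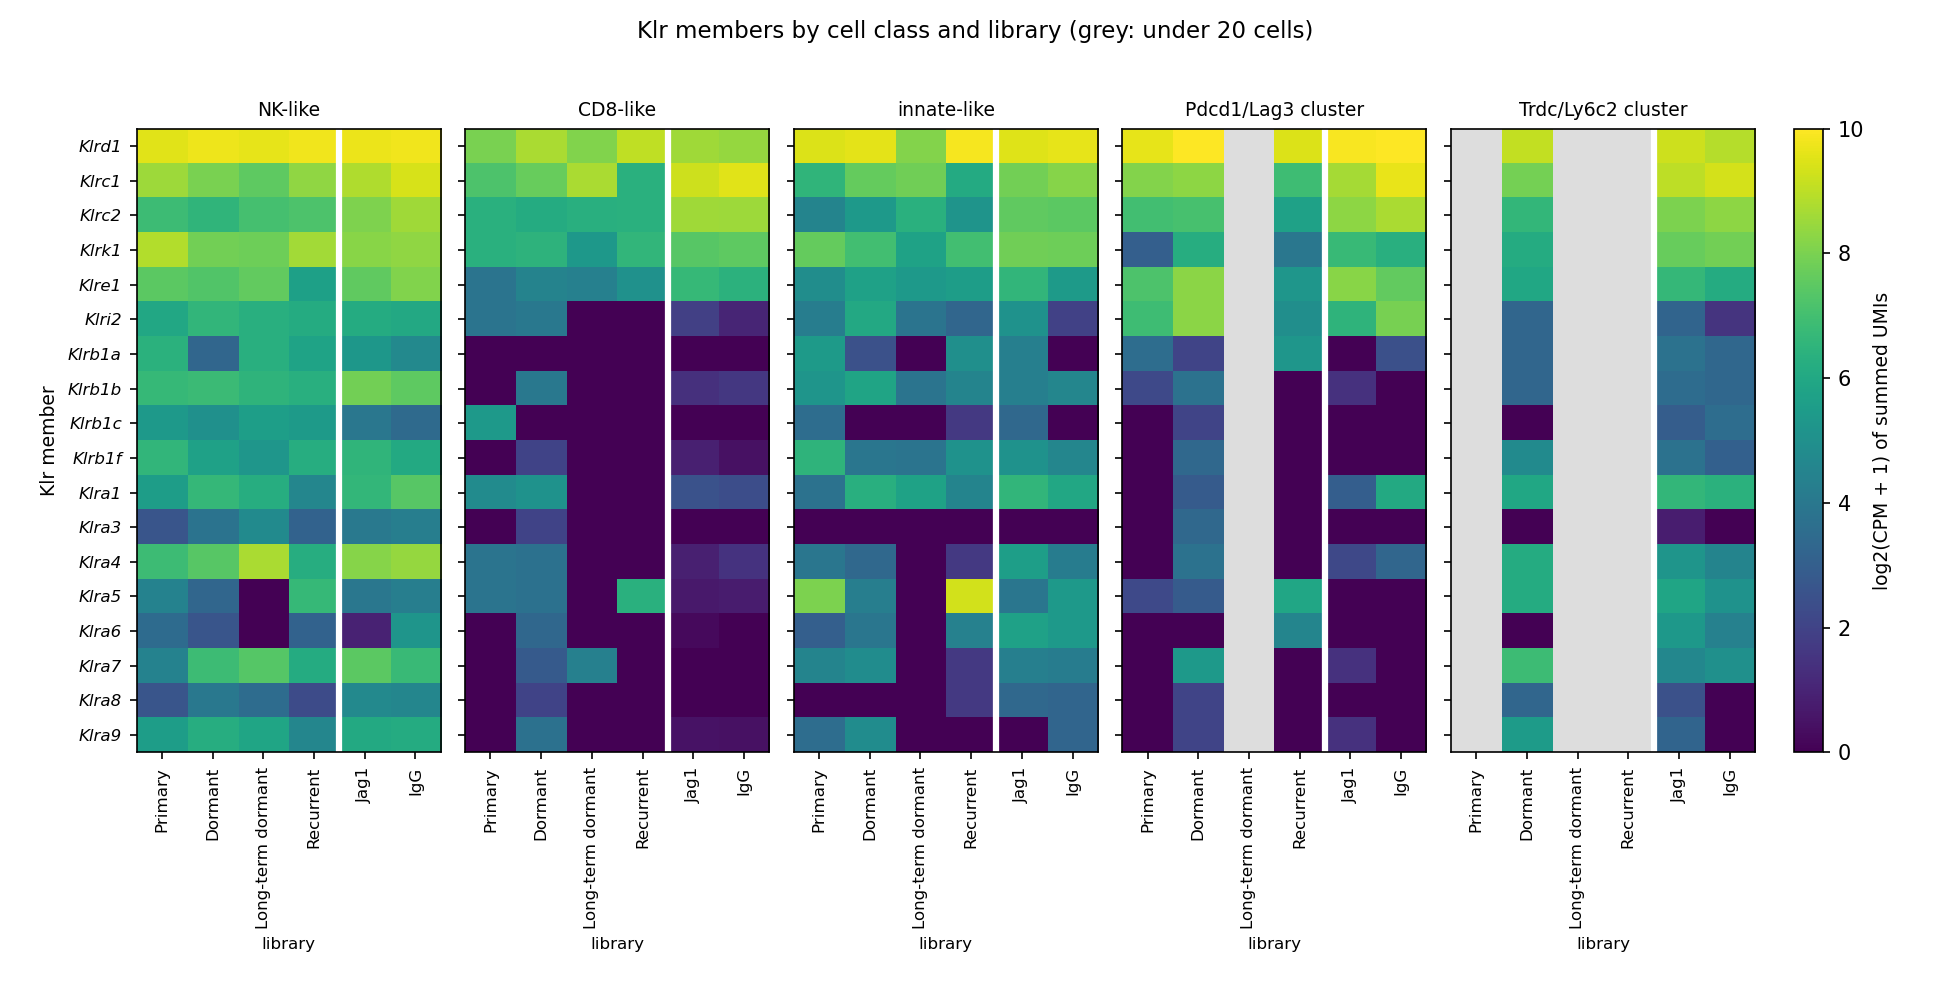
Levels of the 18 members given in full (rows) by library (columns) in 5 lymphocyte classes (panels), as log2(CPM + 1) of summed UMIs; grey marks libraries with fewer than 20 cells of the class, and the white line divides the stage from the antibody libraries. Klrd1 is bright in every panel, the Klra rows are bright mainly in NK-like cells, and Klra5 is bright in Primary and Recurrent innate-like cells.

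Klrd1 (CD94) is the invariant partner that pairs with NKG2 chains at the cell surface. In NK-like cells it had 750 CPM in Primary, 862 CPM in Dormant, 784 CPM in Long-term dormant and 879 in Recurrent, and a UMI in 79.4, 75.4, 59.1 and 80.7% of cells in that order. It had 827 CPM in Jag1 and 878 CPM in IgG NK-like cells, where 96.4% and 93.4% of cells held a UMI. No library pair differed 2-fold. Here and below, only cells with at least 1000 UMIs were thinned to 1000 UMIs, and the others were left out. That kept 92 of the 137 Long-term dormant NK-like cells. After thinning the shares were 45.7 to 57.3% over the 6 libraries, a narrower spread than without thinning. The part of the cells left out in this was not tested. In innate-like cells Klrd1 had 716 CPM in Primary, 772 CPM in Dormant, 280 CPM in Long-term dormant and 930 in Recurrent. The background of Klrd1 was widest in the Dormant library, where 11.9% of epithelial cells held a UMI, against 0.675% in Primary and 1.6% in Recurrent.

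Klrc1 (NKG2A, inhibitory) and Klrc2 (NKG2C, activating) pair with Klrd1 and bind Qa-1, the product of H2-T23. Klrc1 had 375 CPM in Primary, 252 CPM in Dormant, 184 CPM in Long-term dormant and 320 in Recurrent NK-like cells. Klrc2 had 115, 93.1, 132 and 145 CPM in the same order. Neither was called in any stage pair of NK-like cells. In the antibody libraries Klrc1 had 448 CPM in Jag1 and 669 CPM in IgG NK-like cells, and Klrc2 had 265 CPM in Jag1 and 378 CPM in IgG NK-like cells. Both were under 2-fold lower in Jag1. Within the Cd3e-poor NK-like cluster (325 Jag1 and 177 IgG cells) the order was the other way, with Klrc1 at 436 CPM in Jag1 and 365 CPM in IgG, and Klrc2 at 262 CPM in Jag1 and 224 CPM in IgG. Klrc3 (NKG2E) had 8 UMIs in Jag1 and 14 in IgG NK-like cells, which was called (log2 -1.50, -2.96 to -0.15) but not with Cd3e-positive cells left out (-1.41).

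CD8-like cells of the antibody libraries also carried both chains. Klrc1 was found in 67.8% of 1062 Jag1 cells and 64.9% of 747 IgG cells, and Klrc2 in 60.7% of Jag1 and 53.7% of IgG cells. Their levels were 598 CPM in Jag1 and 746 CPM in IgG for Klrc1, and 376 CPM in Jag1 and 374 CPM in IgG for Klrc2. The 2 genes were mostly detected in the same cells. Among CD8-like cells with a Klrc1 UMI, 82.4% in Jag1 and 77.9% in IgG also had a Klrc2 UMI, whereas among those without one the share was 15.2% in Jag1 and 8.78% in IgG. NK-like cells showed the same split, with Klrc2 in 78.5% of Klrc1-positive against 19.5% of Klrc1-negative Jag1 cells, and in 86.1% against 4.9% of IgG cells. In the shallower Dormant NK-like cells the shares were 27.3% and 13.4%. Depth was not held fixed in these shares, and a deeper cell shows more of any gene.

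The 2 genes are neighbours on the minus strand of chromosome 6, with Klrc2 at chr6:129647496-129660689 and Klrc1 at chr6:129666015-129678973 in mm10. Their promoters (250 bases before to 50 after the start, RefSeq, GRCm38.p6, minus strand) are shown because the pair was detected together. They span chr6:129678924-129679223 for Klrc1 and chr6:129660547-129660846 for Klrc2. Capitals mark the RUNX letters TGTGGT on either strand, here in their reverse complement.
Klrc1: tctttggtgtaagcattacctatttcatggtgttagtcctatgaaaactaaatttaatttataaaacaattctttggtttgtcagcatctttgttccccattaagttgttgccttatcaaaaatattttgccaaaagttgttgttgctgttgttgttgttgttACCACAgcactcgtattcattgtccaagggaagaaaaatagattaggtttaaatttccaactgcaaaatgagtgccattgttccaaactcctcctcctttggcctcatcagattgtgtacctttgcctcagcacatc
Klrc2: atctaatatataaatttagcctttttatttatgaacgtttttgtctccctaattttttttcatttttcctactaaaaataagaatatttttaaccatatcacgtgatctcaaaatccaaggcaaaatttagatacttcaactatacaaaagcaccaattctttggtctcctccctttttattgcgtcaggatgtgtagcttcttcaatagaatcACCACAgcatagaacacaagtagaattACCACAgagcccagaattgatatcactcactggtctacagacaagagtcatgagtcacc
These letters occur in the promoters of 8 of the 23 members with an entry, namely Klrb1a, Klrb1c, Klre1, Klrk1, Klrc1, Klrc2, Klrc3 and Klra1, and in 4573 of all 27025 promoters (16.9%). RUNX factors are known regulators of killer cell genes. The motif was chosen after the data were seen, and a match is a description of letters and not a bound site.

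Klrk1 (NKG2D) is an activating receptor that signals through Hcst and Tyrobp and binds the stress ligands of the Raet1, H60 and Ulbp1 groups. In NK-like cells it had 458 CPM in Primary, 233 CPM in Dormant, 221 CPM in Long-term dormant and 395 in Recurrent, so both tumour libraries lay above both residual ones, and no stage pair compared was called. A UMI was found in 60.3% of Primary, 37.7% of Dormant, 24.8% of Long-term dormant and 68.7% of Recurrent NK-like cells. It had 296 CPM in Jag1 and 327 CPM in IgG NK-like cells. In CD8-like cells it had 167 CPM in Jag1 and 184 CPM in IgG, with a UMI in 39.5% of Jag1 and 33.6% of IgG cells.

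Klre1 forms an inhibitory receptor with Klri1 and an activating one with Klri2. In NK-like cells Klre1 had 177 CPM in Primary, 155 CPM in Dormant, 195 CPM in Long-term dormant and 50.8 in Recurrent. The Recurrent library was the low one, with 13 UMIs against 176 in Dormant (log2 ratio -1.61, -2.54 to -0.79) and against 34 in Primary (-1.80, -2.85 to -0.84). Klri2 did not follow, with 62.5 CPM in Primary, 95.7 CPM in Dormant, 79 CPM in Long-term dormant and 70.3 in Recurrent NK-like cells. Klri1 had at most 11 UMIs in any library of these cells. In the antibody libraries Klre1 had 189 CPM in Jag1 and 272 CPM in IgG NK-like cells (190 CPM in Jag1 and 192 CPM in IgG in the Cd3e-poor cluster), and Klri2 had 69.2 CPM in Jag1 and 64.1 CPM in IgG.

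Of the Klrb1 (NKR-P1) genes, NK-like cells held 38.4% of all UMIs of Klrb1a, 50.1% of Klrb1b, 53.5% of Klrb1c and 64.3% of Klrb1f. Klrb1c encodes the NK1.1 molecule, and Klrb1b is an inhibitory receptor for Clec2d. Klrb1b had 104 CPM in Primary, 111 CPM in Dormant, 89.5 CPM in Long-term dormant and 78.1 in Recurrent NK-like cells, and 233 CPM in Jag1 against 183 CPM in IgG. Within the Cd3e-poor cluster Klrb1b had 255 CPM in Jag1 and 265 CPM in IgG. Klrb1f had 93.8, 51.8, 36.8 and 74.2 CPM in the stage libraries in that order, and 91.4 CPM in Jag1 against 65.6 CPM in IgG. Klrb1c had 41.7 CPM in Primary, 31.6 CPM in Dormant, 47.4 CPM in Long-term dormant and 43 in Recurrent, and 14.6 CPM in Jag1 against 9.92 CPM in IgG. None of these 3 was called in NK-like cells. Klrb1a was the exception. It had 83.4 CPM in Primary, 8.78 CPM in Dormant, 79 CPM in Long-term dormant and 54.7 in Recurrent NK-like cells, on 16, 10, 15 and 14 UMIs, so the Dormant library alone was low. The log2 ratio was -3.25 for Dormant over Primary (-4.55 to -2.02), 3.17 for Long-term dormant over Dormant (1.92 to 4.48) and 2.64 for Recurrent over Dormant (1.36 to 3.97). With NK cells taken by Ncr1 and no Cd3 in place of clusters, the Long-term dormant over Dormant ratio was 0.91 and was not called, and with Cd3e-positive cells left out the Recurrent over Dormant ratio was 2.29 and was not called.

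The Klra (Ly49) genes encode inhibitory and activating receptors, many of which bind MHC class I. NK-like cells held 71.1 to 77.4% of all UMIs of Klra3, Klra4, Klra7, Klra8 and Klra9, and 49% of those of Klra1. Any Klra UMI was seen in 32.4% of Primary, 42.1% of Dormant, 40.1% of Long-term dormant and 33.7% of Recurrent NK-like cells, and in 45.3% of Jag1 and 61.2% of IgG cells. Cells with at least 2 Klra members made up 8.43 to 20.2% in the stage libraries, 29.4% in Jag1 and 38.4% in IgG. Klra counts have 2 limits that bear on single members. The last 300 bases of the transcripts are 98.7% alike between Klra9 and Klra3, 88% between Klra5 and Klra6, 87.7% between Klra8 and Klra6 and 86% between Klra4 and Klra1, so reads could be divided between them. The Ly49 gene set also differs among inbred strains, while mm10 is of C57BL/6J and these mice are FVB. The part of either in the values was not tested.

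Klra4 (Ly49D, activating) had 115 CPM in Primary, 170 CPM in Dormant, 426 CPM in Long-term dormant and 74.2 in Recurrent NK-like cells. Long-term dormant was the highest, with a log2 ratio of 1.32 over Dormant (0.93 to 1.70), though the share of cells with a UMI was 22.6% in Long-term dormant and 22.1% in Dormant. Recurrent lay below Dormant (log2 -1.20, -1.96 to -0.52). With Ncr1 gates in place of clusters the Long-term dormant ratio was 0.32, and with Cd3e-positive cells left out it was 0.98, neither of which was called. Klra7 (Ly49G) had 20.8 CPM in Primary, 114 CPM in Dormant, 163 CPM in Long-term dormant and 70.3 in Recurrent NK-like cells, so Primary was low, on 4 UMIs in 68 cells. Its log2 ratio was 2.45 for Dormant over Primary (1.06 to 4.35), and 0.87, not called, when Klr genes were among the variable genes used to cluster. Klra1 (Ly49A) had 46.9 CPM in Primary, 99.2 CPM in Dormant, 73.7 CPM in Long-term dormant and 23.4 in Recurrent. Its log2 ratio was 1.08 for Dormant over Primary (0.11 to 2.25; 1.00 and not called without mitochondrial, ribosomal and haemoglobin genes) and -2.08 for Recurrent over Dormant (-3.56 to -0.91). Klra9 (Ly49I) had 46.9, 73.8, 57.9 and 23.4 CPM in stage order and was called for Recurrent over Dormant (log2 -1.65, -3.14 to -0.47). For Recurrent over Dormant, Klra4, Klra1 and Klra9 were thus called lower, whereas Klra5 was called higher (102 CPM in Recurrent and 8.78 CPM in Dormant), in a comparison where 14.8% of all genes were called.

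In the antibody libraries Klra4 had 288 CPM in Jag1 and 342 CPM in IgG NK-like cells, Klra7 had 177 CPM in Jag1 and 110 CPM in IgG, and Klra1 had 96.6 CPM in Jag1 and 167 CPM in IgG. None was called. Klra6 (Ly49F) was called, with 2 UMIs in Jag1 and 48 in IgG (log2 -5.28, -8.37 to -3.35). Of the 48, 45 came from the IgG cells of the Cd3e-rich cluster, and the Cd3e-poor cluster had 3. With a stricter cell filter the ratio was -0.61. With Cd3e-positive cells left out, no member was called between Jag1 and IgG NK-like cells, and with them 3.62% of all genes were called.

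Klra members overlapped within cells. Among NK-like cells with a Klra4 UMI, 31.4% in Dormant, 50% in Jag1 and 21.6% in IgG also had a Klra7 UMI, whereas among those without one the share was 9.73% in Dormant, 7.69% in Jag1 and 5.2% in IgG. A Klra9 UMI was found in 25.7% of Klra4-positive and 6.22% of Klra4-negative Dormant cells, and in 46% and 3.85% of Jag1 cells. Depth was not held fixed in these shares either, and the last 300 bases of Klra7 and Klra4 are 75.3% alike. NK-like cells held a median of 2 to 4 Klr members in the stage libraries, 6 in Jag1 and 5 in IgG, with up to 14 in a cell. Thinned to 1000 UMIs, the mean was 1.7 to 2.08 members in the stage libraries, 2.47 in Jag1 and 2.57 in IgG.

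Across NK-like cells, 14 members were read for Dormant over Primary and 2 were called higher (Klra7, Klra1) and 1 lower (Klrb1a), against a background of 14.4% of all genes called. For Long-term dormant over Dormant, 2 of 15 were higher (Klrb1a, Klra4), against 12.4%. For Recurrent over Dormant, 2 of 15 were higher (Klrb1a, Klra5) and 4 lower (Klre1, Klra4, Klra9, Klra1), against 14.8%. For Recurrent over Primary, 2 of 12 were higher (Klra5, Klra7) and 1 lower (Klre1), against 6.39%. For Jag1 over IgG, 2 of 20 were lower (Klrc3, Klra6), against 3.62%, and in CD8-like cells 0 of 6 were called, against 2.59%. The median log2 ratio of the members read was -0.06, -0.07, 0.03, -0.22 and -0.19 in the 5 NK-like comparisons, against 0.11, -0.04, -0.05, 0.03 and -0.07 for all genes. The 3 comparisons that involve Dormant share its cells.

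Among the genes that work with these receptors, 13 adaptors and signalling genes, 13 other killer cell receptors and 15 regulators were followed in NK-like cells. Tyrobp, Fcer1g, Ncr1 and Eomes were among the markers that named the NK-like clusters, and Cd160 among those of the innate-like clusters. Their levels here are thus not independent of how the cells were named. For Dormant over Primary (background 14.4%), 1 of 11 adaptors and signalling genes read was lower, with a median log2 of 0.11 against 0.11 for all genes. That gene was Ptpn6 (SHP-1), the phosphatase recruited by inhibitory receptors, with 24 UMIs in 475 Dormant cells and 19 in 68 Primary cells (log2 -2.23). Other receptors were lower for 4 of 8 read, namely Cd226 (DNAM-1), Cd160, Cd96 and Crtam, with a median of -0.97 against 0.11. Of 12 regulators 1 was higher, the NK cell factor Eomes (1.75). In Recurrent over Dormant (background 14.8%), 1 of 12 adaptors was higher (Ptpn6, 34 UMIs in Recurrent and 24 in Dormant, log2 2.66) and 2 were lower (Sh2d1a, -3.11, and Sh2d2a, -1.17). Other receptors were higher for 2 of 8 read (Cd226, 2.98, and Cd160, 1.99), with a median of 1.05 against -0.05. Of 12 regulators 1 was higher (Tox, 1.89) and 2 were lower (Eomes, -2.75, and Nfil3, -1.28). Long-term dormant over Dormant (background 12.4%) had 0 of 12 adaptors called, 1 of 6 other receptors higher (Cd226) and 1 lower (Lag3), and of 12 regulators 2 higher (Zeb2, Tox) and 1 lower (Ikzf2). Recurrent over Primary (6.39%) had 1 gene called, the regulator Id2, which was lower. Tyrobp, the adaptor of the activating Klra and Klrk1 proteins, had 1615 CPM in Primary, 2090 CPM in Dormant, 2627 CPM in Long-term dormant and 1563 in Recurrent NK-like cells. For Jag1 over IgG (background 3.62%), 0 of 13 adaptors were called, 2 of 11 other receptors were higher (Pdcd1, log2 1.34, and Lag3, 1.98) and 3 of 14 regulators were lower (Prdm1, -2.09, Zeb2, -1.29, and Il15ra). The Cd3e-rich cluster gave 35 of the 360 Jag1 and 112 of the 289 IgG cells in these sums. The part of this in the values was not tested.

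Klra5 (Ly49E) had 51.6% of its UMIs in innate-like cells and the log2 ratio farthest from 0 of the members called there for Dormant over Primary and for Recurrent over Dormant. It had 259 CPM in Primary, 18.6 CPM in Dormant, 0 CPM in Long-term dormant and 631 in Recurrent innate-like cells, on 144, 4, 0 and 287 UMIs. The intervals were 218 to 305 CPM in Primary, 5.07 to 47.6 in Dormant and 560 to 708 in Recurrent, and the count of 0 allowed up to 40 CPM in Long-term dormant. Both tumour libraries were high and both residual libraries low. A UMI was found in 39.1% of Primary, 3.45% of Dormant, 0% of Long-term dormant (upper limit 7.25%) and 54.6% of Recurrent cells, and after thinning in 24.2% of Primary, 1.27% of Dormant and 34.2% of Recurrent cells. The log2 ratio was -3.80 for Dormant over Primary (-5.69 to -2.41), 5.08 for Recurrent over Dormant (3.71 to 6.97) and 1.28 for Recurrent over Primary (0.99 to 1.58). In the antibody set Klra5 had 14.2 CPM in Jag1 and 40.1 CPM in IgG innate-like cells, on 3 and 14 UMIs. Gzmc UMIs, found in 53.6% of Primary and 47.9% of Recurrent innate-like cells, were frequent in the same 2 libraries, and the Cd8a share was 26.8% in Primary, 14.9% in Dormant and 56.3% in Recurrent. The part of these differences between the cells in the Klra5 values was not tested. Where the cells were taken by a Gzmc or Gzmf UMI alone (128 Primary and 133 Recurrent cells), Recurrent over Primary was 0.60 and was not called.

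**Figure D3:**
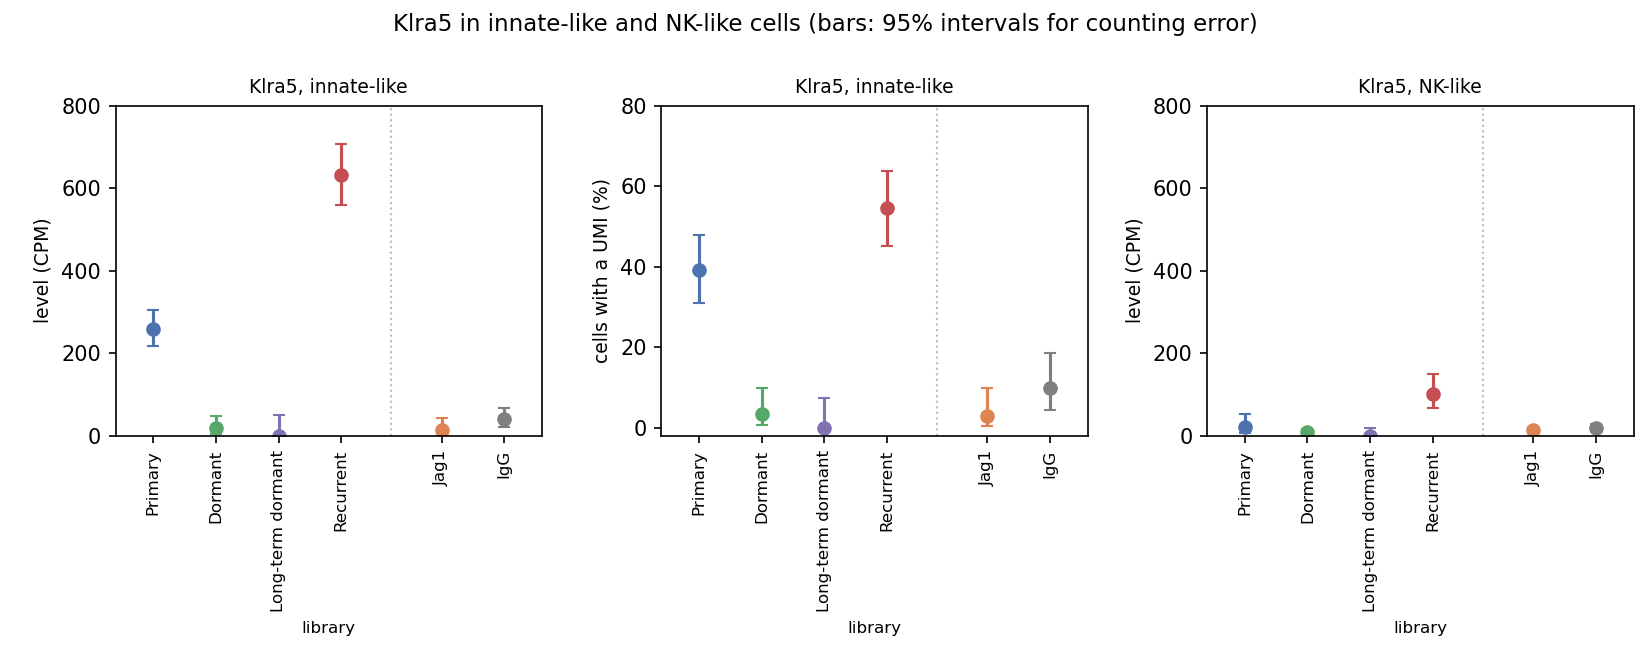
Klra5 by library (horizontal axis), as level in CPM in innate-like cells (left), percent of innate-like cells with a UMI (middle) and level in CPM in NK-like cells (right), with exact 95% intervals for counting error. Primary and Recurrent innate-like cells, at 259 and 631 CPM, lie above Dormant and Long-term dormant, and NK-like cells of the stage libraries stay at or below 102 CPM.

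Klra5 was spread over many innate-like cells, since the cell with most UMIs held 5.56% of them in Primary and 5.92% in Recurrent. Of the Klra5-positive cells, 92.6% in Primary and 89.2% in Recurrent also carried Klrd1, against 76.2% of the Klra5-negative cells in Primary and 74.1% in Recurrent, with depth not held fixed. Where cells were taken by markers in place of clusters, CD8 T cells (Cd8a or Cd8b1 with Cd3 and no Trdc, Gzmc or Gzmf) had high Klra5 in the Recurrent library. It had 11.1 CPM in Primary, 2.71 CPM in Dormant, 0 CPM in Long-term dormant and 183 in Recurrent. Of the 114 Recurrent cells in that gate, 23 lay in the innate-like clusters. Gamma-delta T cells (Trdc with Cd3) had 87 CPM in Primary, 8.01 CPM in Dormant, 14.6 CPM in Long-term dormant and 231 in Recurrent. In NK-like clusters Klra5 had 20.8, 8.78, 0 and 102 CPM in stage order, called for Recurrent over Dormant (log2 3.53, 2.43 to 4.75) and over Primary (2.29, 0.76 to 4.26). The ratio over Primary rested on 4 UMIs there, was 0.02 with doublets kept, and turned to -0.92 with a stricter cell filter and to -0.24 with Klr genes among the variable genes. Gzmc was found in 19.1% of Primary, 1.89% of Dormant and 28.9% of Recurrent NK-like cells. Klra6, whose transcript end is 88% like that of Klra5, had 7.19 CPM in Primary, 14 CPM in Dormant, 0 CPM in Long-term dormant and 19.8 in Recurrent innate-like cells.

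Other members of innate-like cells also differed between stages. Klrb1f had 89.9 CPM in Primary, 14 in Dormant and 33 in Recurrent (log2 -2.69 for Dormant over Primary, -5.01 to -1.06). Klrb1a had 43.2 CPM in Primary, 4.65 in Dormant and 30.8 in Recurrent, again with Dormant low. Klrc1 was high in Dormant, with 93.5 CPM in Primary, 200 in Dormant and 68.1 in Recurrent, and Klra1 had 12.6, 79.1 and 22 CPM in the same order. Klrk1 had 200 CPM in Primary, 126 in Dormant and 123 in Recurrent and was not called. The Klrc1 ratio of Dormant over Primary was 1.10, and 0.65 and not called at clustering resolution 2.0. Of 11 members read for Dormant over Primary, 3 were higher (Klrc1, Klri2, Klra1) and 3 lower (Klrb1a, Klrb1f, Klra5), against a background of 20.2%. For Recurrent over Dormant 1 of 8 was higher (Klra5) and 3 lower (Klrb1b, Klrc1, Klra1), against 17.6%, with Klrb1b not called when Klr genes were variable genes (log2 -0.83). For Recurrent over Primary 1 of 9 was higher (Klra5) and 1 lower (Klrb1f), against 5.1%. For Jag1 over IgG, Klre1 was the 1 member of 7 called, with 94.8 CPM in Jag1 and 43 CPM in IgG (log2 1.14, 0.10 to 2.21), against 7.09%. Against that 20.2% for Dormant over Primary, of 7 other killer cell receptors read 2 were lower (Ncr1, log2 -1.56, and Cd226, -2.23) and 1 higher (Lag3, 1.82), with a median of -0.98 against -0.07 for all genes. Of 9 adaptors and signalling genes 1 was lower (Ptpn6, -2.56).

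The gamma-delta-like cluster, led by Il17a, held too few cells to compare, and its Klr UMIs were sparse. Klrk1 was found in 50% of its 26 Jag1 cells and 36.4% of its 11 IgG cells, and in 22.2% of its 27 Long-term dormant cells. Klrd1 was found in 15.4% of the Jag1, none of the IgG and 7.41% of the Long-term dormant cells. Taken by Trdc and Cd3 instead, the cells numbered 68 in Primary, 319 cells in Dormant, 44 cells in Long-term dormant, 72 in Recurrent, 225 in Jag1 and 143 in IgG. These carried Klrd1 in 64.7% of Primary, 71.2% of Dormant, 34.1% of Long-term dormant, 75% of Recurrent, 80.9% of Jag1 and 79.7% of IgG cells. They came from several clusters, and Trdc UMIs were also found in 15.3 to 28.9% of NK-like cells. In the antibody libraries 105 of the 225 Jag1 and 54 of the 143 IgG cells lay in a cluster led by Trdc and Ly6c2.

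In these marker-taken gamma-delta T cells Klre1 had 15.1 CPM in Primary, 79.4 CPM in Dormant, 80.2 CPM in Long-term dormant and 38 in Recurrent. Klri2 had 3.78, 37.9, 65.6 and 9.5 CPM in the same order, on 1, 52, 9 and 3 UMIs. For Dormant over Primary, 5 of 13 members were higher (Klre1, Klri2, Klra4, Klra9, Klra1) and 2 lower (Klrb1f, Klra5), against a background of 18.9%. The log2 ratios were 2.39 for Klre1 (0.99 to 4.29) and -3.44 for Klra5 (-4.63 to -2.35). Recurrent over Dormant had 1 of 13 higher (Klra5, log2 4.85, 3.93 to 5.91) and 6 lower (Klrb1b, Klre1, Klri2, Klra4, Klra7, Klra1), against 14.9%. For Recurrent over Primary, 1 of 6 was higher (Klra5, 1.41, 0.72 to 2.15), against 9.46%, and for Jag1 over IgG 0 of 17 were called, against 4.55%. Of the 319 Dormant cells 67 lay in NK-like and 31 in innate-like clusters, and of the 68 Primary cells 5 and 33 did. The part of this in the values was not tested.

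That Trdc/Ly6c2 cluster held 202 Jag1 and 102 IgG cells and had a broad Klr set. Klrc1 was found in 73.8% of Jag1 and 73.5% of IgG cells, Klrd1 in 92.1% of Jag1 and 79.4% of IgG cells, and any Klra in 53.5% of Jag1 and 43.1% of IgG cells. The summed level was 1991 CPM in Jag1 and 1973 CPM in IgG. Klra5 had 57.9 CPM in Jag1 and 32.9 CPM in IgG, and Klra6 had 39.8 CPM in Jag1 and 20.1 CPM in IgG. Of 12 members read, 0 were called, against a background of 3.61%.

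T cells of the cluster led by Pdcd1 and Lag3, which encode inhibitory receptors of chronically stimulated T cells, differed in their Klr genes between stages, and also in which T cells they were. Cd4 was found in 53% of the 168 Primary and 52.5% of the 61 Recurrent cells, whereas the 123 Dormant cells had Cd8a in 75.6% and Cd4 in 4.88%. The part of this in the values below was not tested. Klri2 had 119 CPM in Primary, 310 in Dormant and 29.6 in Recurrent cells, and Klre1 had 148, 304 and 37 CPM in the same order. Dormant was highest for both partners, with log2 ratios over Primary of 1.38 for Klri2 (0.80 to 1.99) and 1.04 for Klre1 (0.50 to 1.60), and Recurrent over Dormant of -3.39 (-5.29 to -1.99) and -3.04 (-4.69 to -1.76). In Dormant cells of this cluster Klri2 was found in 54.1% of Klre1-positive and 33.9% of Klre1-negative cells, with depth not held fixed. Klrk1 had 7.21 CPM in Primary, 75.1 in Dormant and 14.8 in Recurrent cells.

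Klrb1 had the opposite order. It had 97.4 CPM in Primary, 3.13 in Dormant and 163 in Recurrent cells of the Pdcd1/Lag3 cluster, on 27, 1 and 22 UMIs, and 84% of its 75 UMIs in all libraries fell in this cluster. A UMI was found in 14.3% of Primary, 0.813% of Dormant and 23% of Recurrent cells. For Dormant over Primary 3 of 7 members were higher (Klre1, Klrk1, Klri2) and 1 lower (Klrb1), against a background of 16.2%. For Recurrent over Dormant 1 of 7 was higher (Klrb1) and 5 lower (Klre1, Klrk1, Klrc2, Klrc1, Klri2), against 13.9%. For Recurrent over Primary 4 of 6 were lower (Klre1, Klrc2, Klrc1, Klri2), against 6.34%. For Jag1 over IgG 2 of 6 were lower, against 6.73%. These were Klrc1, with 396 CPM in Jag1 and 802 CPM in IgG (log2 -1.02, -1.30 to -0.73), and Klri2, with 89.6 CPM in Jag1 and 247 CPM in IgG (-1.46, -2.03 to -0.89). Cd4 was found in 4.76% of the 105 Jag1 and 28.1% of the 57 IgG cells.

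**Figure D4:**
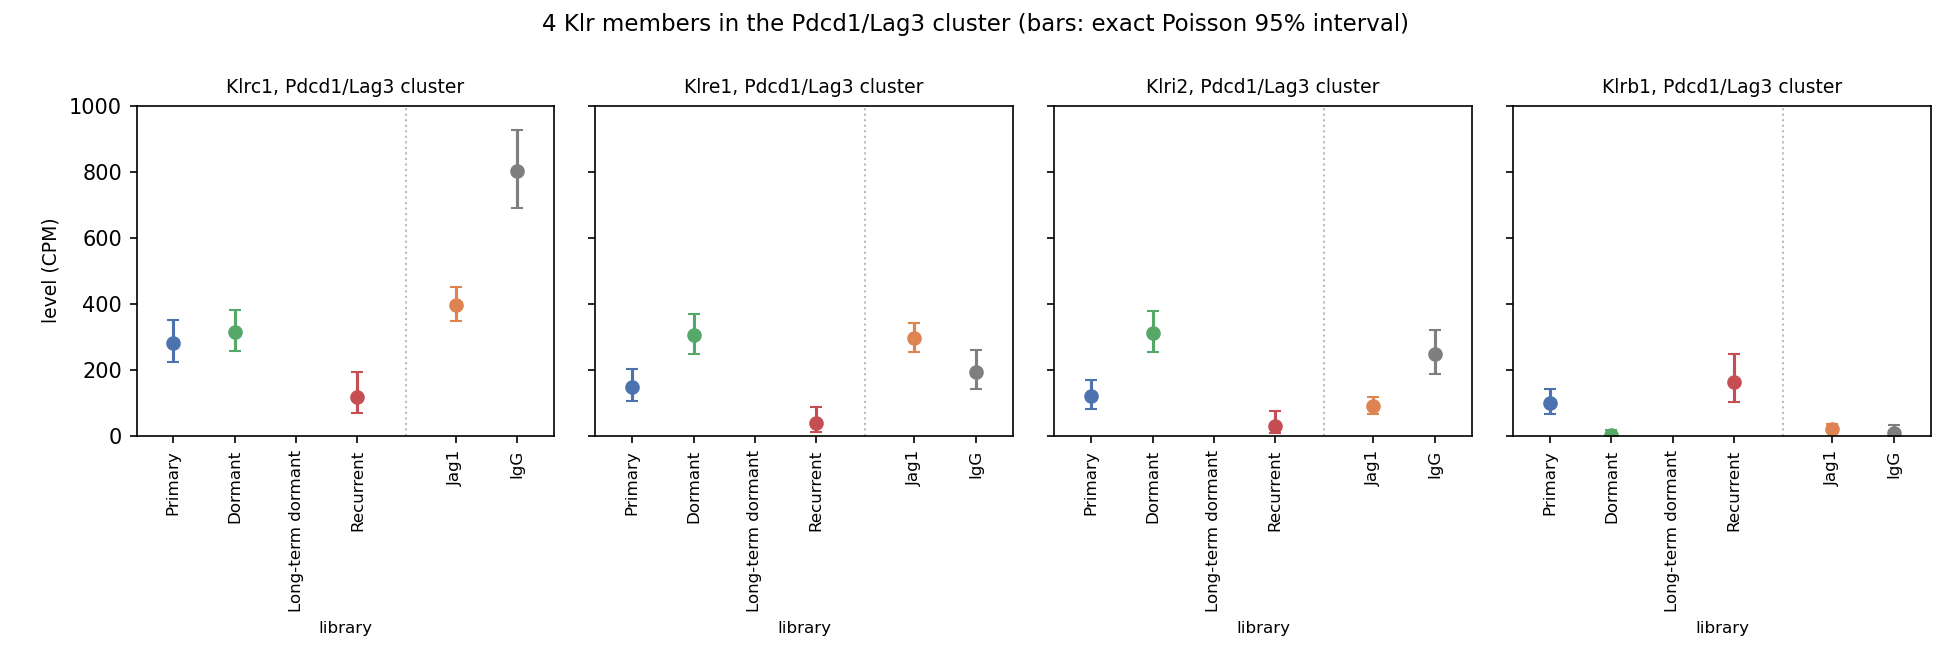
Levels in CPM (vertical axis) of Klrc1, Klre1, Klri2 and Klrb1 (panels) in the Pdcd1/Lag3 cluster by library (horizontal axis), with exact Poisson 95% intervals; Long-term dormant held 5 cells and is not drawn. Klre1 and Klri2 are highest in Dormant of the stage libraries, at 304 and 310 CPM, whereas Klrb1 is highest in Recurrent at 163 CPM.

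A high Dormant level of Klre1 and Klri2 was also seen among CD8 T cells taken by markers, of which 129 were Primary, 548 Dormant, 66 Long-term dormant and 114 Recurrent. Klri2 had 8.87 CPM in Primary, 95.1 CPM in Dormant, 0 CPM in Long-term dormant and 5.33 in Recurrent, although 1 Dormant cell held 31.3% of the 246 Dormant UMIs. A UMI was found in 2.33% of Primary, 16.6% of Dormant, 0% of Long-term dormant (upper limit 5.44%) and 1.75% of Recurrent cells. Klre1 had 15.5 CPM in Primary, 71.1 CPM in Dormant, 5.65 CPM in Long-term dormant and 12.4 in Recurrent. Dormant was high for both genes. In the CD8-like clusters, on 32 Primary and 138 Dormant cells, Klri2 had 13.5 CPM in Primary and 15.1 CPM in Dormant, on 1 and 5 UMIs. Of the 548 Dormant cells of the gate 96 lay in the Pdcd1/Lag3 cluster, and of the 129 Primary cells 29 did. For Dormant over Primary, 4 of 9 members were higher (Klre1, Klrk1, Klri2, Klra7), against a background of 13.3%. For Long-term dormant over Dormant 2 of 10 were lower (Klre1, Klri2), against 8.53%. For Recurrent over Dormant 3 of 10 were lower (Klrb1b, Klre1, Klri2) and 1 higher (Klra5), against 13.5%, and for Recurrent over Primary 1 of 5 was higher (Klra5), against 7.32%.

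Some members belonged to myeloid cells. Klra2 (Ly49B) was found in 16.6% of 1187 Primary, 9.22% of 206 Dormant, 1.08% of 1111 Long-term dormant and 17.7% of 1223 Recurrent macrophages or monocytes, and in at most 1.54% of plasmacytoid dendritic cells. Its levels in those macrophages were 27.3, 26.6, 3.93 and 31.7 CPM in the same order, so Long-term dormant alone was low. Its macrophages were also the shallowest, with a median of 2606 UMIs against 3962 to 7130. They also lay in different clusters. A cluster led by Lyz1 and Gpnmb held 1103 of the 1111 Long-term dormant and 144 of the 206 Dormant macrophages. It held 51 of the 1187 Primary and 118 of the 1223 Recurrent ones. The part of this in the values was not tested. Of all Klra2 UMIs 87.9% fell in macrophages or monocytes, and 1 in an NK-like cell. In the antibody libraries it was found in 18.4% of 76 Jag1 and 34.1% of 82 IgG macrophages, and without the repeated barcodes in none of 16 Jag1 and 13.6% of 22 IgG macrophages. Klra17 (Ly49Q) marked plasmacytoid dendritic cells, where it was found in 50% of 22 Primary, 27.7% of 130 Dormant, 28.4% of 155 Long-term dormant and 26.9% of 26 Recurrent cells. In conventional dendritic cells it was found in 7.31% of 835 Long-term dormant and 3.23% of 155 Dormant cells. Plasmacytoid dendritic cells of the antibody libraries held it in 65% of 20 Jag1 and 50% of 20 IgG cells, and without the repeated barcodes in 3 of 4 Jag1 and 2 of 4 IgG cells.

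**Figure D5:**
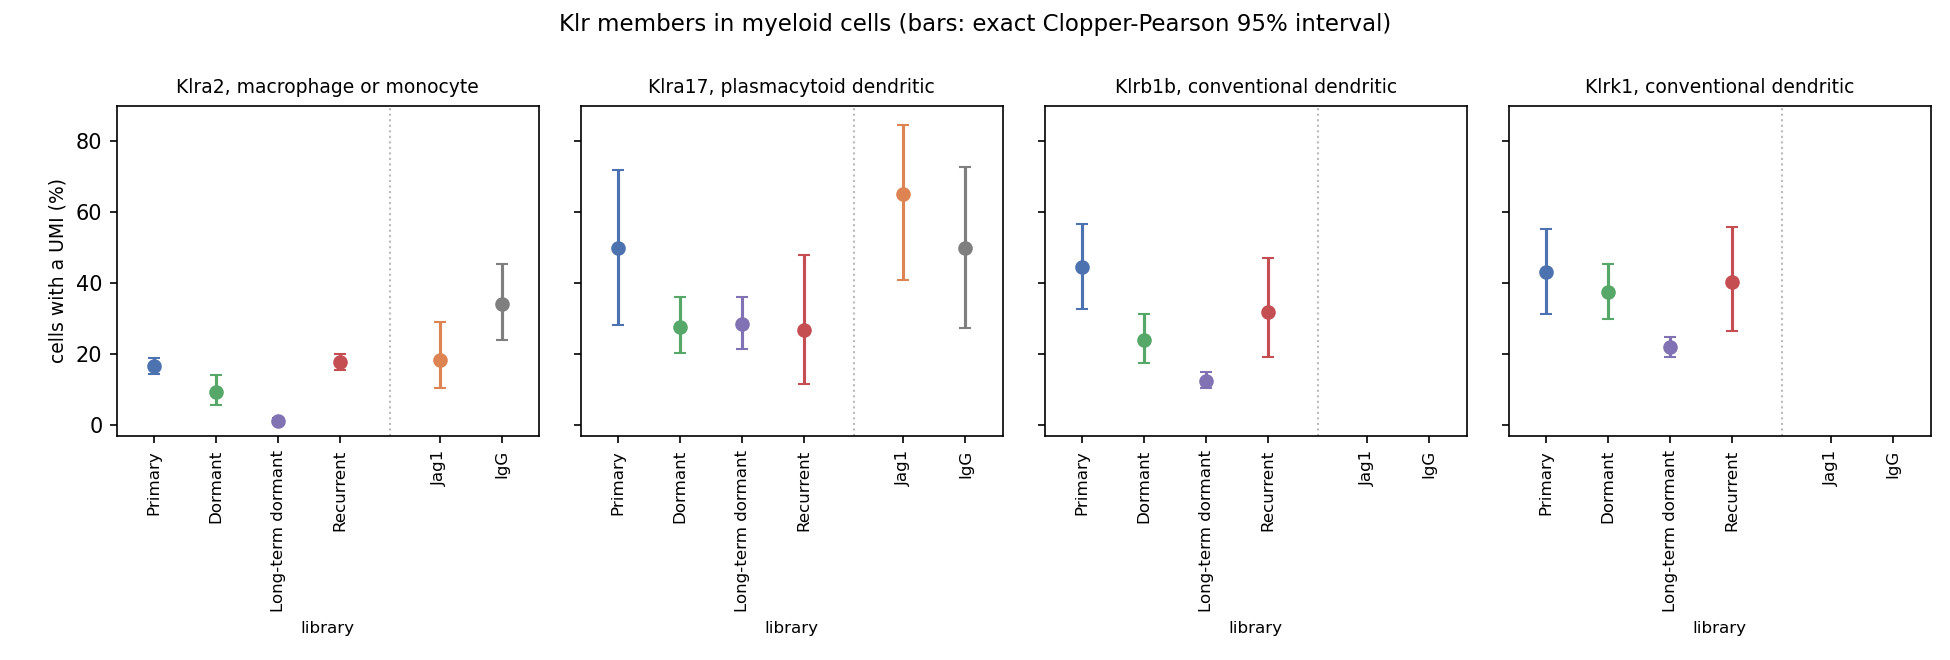
Percent of cells with a UMI (vertical axis) by library (horizontal axis) for Klra2 in macrophages or monocytes, Klra17 in plasmacytoid dendritic cells, and Klrb1b and Klrk1 in conventional dendritic cells (panels), with exact Clopper-Pearson 95% intervals; libraries with fewer than 20 cells are not drawn. Klra2 is lowest, at 1.08%, in Long-term dormant macrophages, and Klra17 stays at or above 26.9% in each library.

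Klra17 and Klra4 divide between plasmacytoid dendritic and NK-like cells, with 54.2% of Klra17 UMIs in plasmacytoid dendritic cells and 0.539% in NK-like cells, and 0.506% of Klra4 UMIs in plasmacytoid dendritic cells and 77.4% in NK-like cells. Their promoters are nonetheless 81.7% alike, and are shown for that reason. They lie at chr6:130067222-130067521 for Klra4 and chr6:129876623-129876922 for Klra17 (RefSeq, GRCm38.p6, minus strand, 250 bases before to 50 after the start). Capitals mark bases that are not matched between the 2 sequences in their alignment.
Klra4: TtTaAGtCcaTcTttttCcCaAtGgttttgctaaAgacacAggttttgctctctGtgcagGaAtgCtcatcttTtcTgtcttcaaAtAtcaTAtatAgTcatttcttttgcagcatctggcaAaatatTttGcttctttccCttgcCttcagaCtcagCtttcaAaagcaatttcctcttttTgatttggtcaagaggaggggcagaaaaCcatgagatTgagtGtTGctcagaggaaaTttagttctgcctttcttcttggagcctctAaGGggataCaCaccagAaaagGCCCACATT
Klra17: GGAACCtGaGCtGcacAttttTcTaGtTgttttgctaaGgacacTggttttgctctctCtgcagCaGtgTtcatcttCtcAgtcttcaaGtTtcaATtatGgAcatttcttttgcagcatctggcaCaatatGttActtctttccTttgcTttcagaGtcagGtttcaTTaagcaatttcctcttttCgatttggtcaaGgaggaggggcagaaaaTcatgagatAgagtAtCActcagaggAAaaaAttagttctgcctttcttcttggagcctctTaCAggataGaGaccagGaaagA
Neither holds the RUNX letters in this window.

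Dendritic cells also carried activating and inhibitory members shared with NK cells. Klrk1 was found in 43.1% of Primary, 37.4% of Dormant, 21.9% of Long-term dormant and 40.4% of Recurrent conventional dendritic cells, against 0.259 to 5.14% of epithelial cells in the same libraries. Klrb1b was found in 44.4, 23.9, 12.5 and 31.9% of those dendritic cells in the same order. Long-term dormant was lowest for both genes, and its dendritic cells were also the shallowest, with a median of 3651 UMIs against 5302 to 6837. In CPM, Klrk1 had 108, 101, 79.8 and 118 and Klrb1b 89.4, 58.8, 38.2 and 73.9 in stage order. Klrd1 was found in 72.7% of Primary, 64.6% of Dormant, 29.7% of Long-term dormant and 46.2% of Recurrent plasmacytoid dendritic cells, at 218, 218, 246 and 112 CPM.

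Ligands of these receptors were read in the epithelial cells, which lay in different clusters by library. A cluster led by Wif1, Cnn1, Acta2 and Krt5, genes that include myoepithelial ones, held 169 of 253 Dormant and 51 of 94 Long-term dormant epithelial cells, but 5 of 1927 Primary and 0 of 2438 Recurrent cells. The part of this in the values below was not tested. H2-T23, the Qa-1 gene, had 6.4 CPM in Primary, 12.6 CPM in Dormant, 7.49 CPM in Long-term dormant and 5.51 in Recurrent epithelial cells, on 78, 28, 3 and 137 UMIs. H2-D1, a class I gene of the kind the Klra receptors bind, had 2249, 4274, 1233 and 2520 CPM in the same order, highest in Dormant. Cdh1 (E-cadherin), the ligand of Klrg1, had 108 CPM in Primary, 127 CPM in Dormant, 89.8 CPM in Long-term dormant and 85.7 in Recurrent. Clec2d, the ligand of Klrb1b, had 16.2, 23.8, 20 and 18.1 CPM in stage order. Of the Klrk1 ligands followed, Ulbp1 had 9, 1, 0 and 4 UMIs and H60b 0, 7, 0 and 2 UMIs in stage order. Raet1e had 1 UMI in Primary and 0 in the other stage libraries, and Raet1d and H60c had 0 in each.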

How the data were processed

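Per the submitters' processing notes, reads were processed with Cell Ranger 3.1.0 on mm10. The deposited values are raw UMI counts per gene and cell, in a stage table (4 libraries) and an antibody table (2 libraries). Other steps before deposit are not given in the sources used here. The cell filter asked for 500 UMIs, 200 genes and no more than 20% mitochondrial UMIs. Scrublet calls were left out, but it made 7 calls in 2729 Jag1, 5 in 2122 IgG and 0 in 3276 Dormant cells, which leaves doublets of these libraries in place. T and NK clusters of the 6 libraries were clustered together without Klr genes (scanpy 1.11.5, genes scaled within each library, 2000 variable genes, 30 components, 15 neighbours, Leiden 1.0, leidenalg 0.10.2). That scaling was chosen after the data were seen. Clusters were named by marker lists that hold no Klr gene, and unnamed clusters are called by their leading genes; other naming could give other levels. UMIs were summed by class and library and given per 1000000 UMIs (CPM). Intervals at 95% are exact Poisson (levels), conditional Poisson (ratios) and Clopper-Pearson (shares). The limit behind a 0 is 3 UMIs. Library pairs were compared in classes with at least 50 cells in both. The interval code was tested on simulated data. Members are given in full from 20 UMIs in 1 library of the 4 named classes; Klrb1, Klra2, Klra17 and Klrc3 are described as exceptions, chosen after their values were seen, as were the 2 clusters that carry gene names. Members and gene lists were chosen with earlier results of these data known. Alternatives were other cell filters, doublets kept, other resolutions, marker gates, TMM factors (edgeR 4.0.16, R 4.3.3), other UMI minimums and other scalings. Python 3.11.15, numpy 2.4.6, scipy 1.17.1 and pandas 2.3.3 were used.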

Additional observations from a re-analysis of the deposited data

How the results depend on the processing

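No paired analysis was possible because each group held 1 library, and for the same reason no replicate could be left out. Of 87 recomputed ratios of summed Klr levels, 63 stayed within their interval, 22 moved and 2 changed sign. Of 107 recomputed counts of called members, 76 stayed within 1.5 times and 31 did not, and of 225 recomputed ratios of single called members 183 kept their call, 40 lost it and 2 changed sign. Settings that left too few cells in a class were not read. With TMM factors 29 single ratios were read, but with marker gates 5, of which 4 lost their call. With no scaling 1 of 3 lost it, and at resolution 0.5 1 of 1. At resolution 0.5 no NK-like or innate-like level of a stage library was read. The 183 thus says little about those settings. Settings added after the data were seen are clustering without scaling within libraries, the marker check (no Cd3e in NK-like and a Cd8 gene in CD8-like cells), leaving out repeated barcodes and leaving out a cluster of few UMIs. The cause of the moves was not tested.

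The counts of called members below are given without the share of all genes called under each setting, so they cannot be read against a background. For NK-like cells, Dormant over Primary gave 6 called members with a stricter cell filter and 5 with doublets kept, against 3. Long-term dormant over Dormant gave 0 at resolution 2.0 and 1 each with marker gates, the marker check and a minimum of 100 UMIs, against 2, and log2 ratios of the sum of -0.04, -0.35 and -0.08 at resolution 2.0, with gates and with TMM factors. Recurrent over Dormant gave 3 with a minimum of 100 UMIs. Recurrent over Primary gave 1 with the stricter filter, with doublets kept and with Klr genes variable, and 0 at 100 UMIs, and Klra5 turned to -0.92 and -0.24 with the stricter filter and with Klr genes variable. Jag1 over IgG gave log2 ratios of -0.06 (resolution 0.5, marker check), -0.07 (no scaling), -0.08 (stricter filter, resolution 2.0), -0.09 (gates), -0.12 (Klr genes variable) and -0.13 (TMM), and 0 called members with the stricter filter, resolution 0.5, no scaling, the marker check and 100 UMIs, and 1 with Klr genes variable, resolution 2.0 and gates.

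For CD8-like cells, Jag1 over IgG gave -0.22 at resolution 2.0, -0.20 with gates, -0.15 with no scaling, -0.17 with the marker check and 0.01 with TMM, and 1 called member with gates and with a minimum of 5 UMIs. For innate-like cells, Dormant over Primary gave 0.18 with the stricter filter and 0.17 with Klr genes variable. Recurrent over Dormant gave 0.64 with doublets kept. Recurrent over Primary gave 0.56, 0.47 and 0.53 with the stricter filter, doublets kept and Klr genes variable, and -0.14 with gates. Jag1 over IgG gave -0.16 with Klr genes variable. Shares of cells depended on depth, and 65 of 84 moved beyond their interval when cells were thinned. Member levels stayed within their interval for 31 of 81 with gates and for 106 of 108 with doublets kept.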
